A study of Mus musculus with 6 samples.

Results

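The immunity-related GTPases are a family of interferon-induced proteins of vertebrate cells. Here 8 mouse genes of the family were followed, *Irgm1*, *Irgm2*, *Igtp*, *Iigp1*, *Tgtp1*, *Tgtp2*, *Ifi47* and *Gm4951*. They were found by their gene names among the 54532 genes of the deposited expression table, and all 8 were listed once. The RNA sequenced came from infarcted and peri-infarcted heart tissue taken on day 7 after permanent ligation of the left anterior descending coronary artery, with 1 library per mouse. The question was how hearts that lack the receptor chain for thymic stromal lymphopoietin (TSLP) differ from WT hearts after myocardial infarction (MI).

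The WT group held 3 C57BL/6 mice. The *Crlf2*-/- group held 3 mice labelled as knockouts of *Crlf2*, the gene of the TSLP receptor chain (TSLPR). All 6 mice had an infarct, so a level below describes infarcted tissue in both groups, and no sham-operated heart was analysed here. The methods describe WT mice as C57BL/6J males aged 8 to 12 weeks, and the knockout line as made on C57BL/6J by a different supplier. The age and sex of the *Crlf2*-/- mice are not given in the sources used here. Genotype and supplier followed the same groups, and the effects of both cannot be told apart.

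Interferon gamma binds its receptor, and Janus kinases there start a signal that turns on the GTPase genes, in part through IRF1. Type I interferons act on some of the same genes with the help of STAT2 and IRF9. The family has a regulatory branch, *Irgm1*, *Irgm2* and *Igtp* (also called *Irgm3*), whose proteins sit on the cell's own membranes and hold the other members inactive there. The effector branch includes *Iigp1* (*Irga6*), *Tgtp1* and *Tgtp2* (*Irgb6*) and *Ifi47* (*Irgd*), whose proteins gather on the vacuoles of intracellular pathogens such as *Toxoplasma* and break them open. *Irgm1* is also known for roles in autophagy and in keeping mitochondria in order. *Gm4951* is a family gene known only by its model number in these files. It was counted with the effector branch in the sums below, which says nothing of its function.

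On the mm10 (GRCm38) coordinates of the table, 6 of the 8 genes lay in 2 stretches of chromosome 11. *Irgm1* (ENSMUSG00000046879, 48861968 to 48871683, minus strand), *Tgtp1* (ENSMUSG00000078922, 48985327 to 48994172, minus), *Tgtp2* (ENSMUSG00000078921, 49057194 to 49064206, minus) and *Ifi47* (ENSMUSG00000078920, 49076587 to 49096974, plus) made up the first stretch. *Igtp* (ENSMUSG00000078853, 58199556 to 58207591, plus) and *Irgm2* (ENSMUSG00000069874, 58199618 to 58222782, plus) made up the second. All 8, with *Iigp1* and *Gm4951* on another chromosome, were annotated as protein coding.

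Promoters of this family are known to carry the DNA elements that interferon signalling uses, so the 100 bases before the annotated start are shown for the 6 genes that matched the RefSeq promoter table (GRCm38.p6). Capitals mark the interferon-stimulated response element, ISRE, searched on both strands as GAAA, any 2 bases and GAAA, and the gamma-activated site, GAS, searched as TTC, any 3 bases and GAA, which reads the same on both strands. Each line runs 5′ to 3′ on the strand of the gene and ends at the base before the RefSeq start. That start is the outer end of the table's gene model for *Igtp* and *Ifi47* and lies a few bases from it for *Tgtp2*. For *Irgm1*, *Tgtp1* and, by the longest distance, *Irgm2* it lies inside the table's model.
Irgm1, chr11:48871421-48871520, minus strand: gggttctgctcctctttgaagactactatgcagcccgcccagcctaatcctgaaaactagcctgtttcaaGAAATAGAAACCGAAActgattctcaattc
Irgm2, chr11:58214877-58214976, plus strand: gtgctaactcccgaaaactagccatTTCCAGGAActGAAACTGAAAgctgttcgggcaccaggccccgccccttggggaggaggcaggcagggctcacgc
Igtp, chr11:58199456-58199555, plus strand: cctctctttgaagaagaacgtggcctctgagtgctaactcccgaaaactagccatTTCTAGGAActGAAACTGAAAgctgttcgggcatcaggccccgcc
Tgtp1, chr11:48992247-48992346, minus strand: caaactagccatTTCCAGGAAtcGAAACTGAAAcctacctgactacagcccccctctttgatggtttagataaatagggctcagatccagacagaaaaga
Tgtp2, chr11:49064213-49064312, minus strand: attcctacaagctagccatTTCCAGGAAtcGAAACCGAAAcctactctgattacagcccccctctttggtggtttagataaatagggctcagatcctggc
Ifi47, chr11:49076487-49076586, plus strand: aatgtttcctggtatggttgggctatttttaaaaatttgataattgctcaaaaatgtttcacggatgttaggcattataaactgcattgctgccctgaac

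In 4 of the 6 promoters, those of *Irgm2*, *Igtp*, *Tgtp1* and *Tgtp2*, a GAS was followed after 2 bases by an ISRE. Counted from the RefSeq start, where -1 is the base before it, the ISRE began at -34 in *Igtp*, -64 in *Irgm2*, -70 in *Tgtp2* and -77 in *Tgtp1*. *Irgm1* had 2 overlapping ISREs, beginning at -30 and -24, and no GAS. *Ifi47* had neither in the window. Only 1 RefSeq start per gene was searched, while 5 transcripts of *Ifi47* are annotated, so any other start was not covered. Over the full windows of 300 bases, from 250 before to 50 after the start, an ISRE was found in 3.44% of 32851 RefSeq promoters, a GAS in 8.30% and both in 0.454%. These are matches of letters and not measured binding. The windows of *Irgm2* and *Igtp* were alike in 92.1% of 265 aligned bases, with a shared run of 61 bases, and those of *Tgtp1* and *Tgtp2* in 80.5% of 272, with a shared run of 27.

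The likeness extends to the transcripts, and this limits some of the values below. Of all stretches of 100 bases in the GENCODE M21 transcripts of *Tgtp1*, 70.3% also occurred in *Tgtp2*, and 76.8% of those of *Tgtp2* occurred in *Tgtp1*. The share was 3.01% for *Irgm2* and 5.16% for *Igtp*, each with the other, 0.842% for *Ifi47* with its neighbours *Olfr56* and *Gm12188*, and 0 for *Irgm1*, *Iigp1* and *Gm4951*. *Igtp* and *Irgm2* also overlapped on the same strand over 162 exon bases, which are 8.01% of *Igtp* and 4.39% of *Irgm2*. *Tgtp1* overlapped *Gm12185*, another gene model of the family, on the same strand over 223 exon bases (6.96%), and 124 of the 3102 stretches of *Tgtp1* and 35 of the 2839 of *Tgtp2* occurred in *Gm12185*. *Ifi47* shared 111 exon bases (4.49%) with *Olfr56* on the same strand and 106 (4.29%) with *Gm12188* on the opposite strand. How the authors counted fragments that match several genes is not given in the sources used here. The levels of *Tgtp1* and *Tgtp2*, and the split between them, are therefore uncertain. The *Iigp1* model behind the table was 3121 bases long, against 5823 in GENCODE M21, so its level per length depends on which model is used.

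The libraries held between 18508646 and 19682428 fragments on listed genes. The extraction protocol in the labels names another tissue, the retina, while the tissue label and the study's methods name the heart. Of 5 retina markers, 3 were listed at 0 in all 6 libraries, while 6 of 6 cardiomyocyte markers were found in all of them. *Crlf2* itself had 917, 813 and 707 fragments in WT replicates 1 to 3 and 437, 651 and 667 in *Crlf2*-/- replicates 1 to 3. The groups did not overlap, but the knockout libraries still held fragments on the gene, and a total per gene does not show which exons they cover (log2 difference -0.52, adjusted p = 0.521 by limma with Benjamini-Hochberg adjustment). Directions below are therefore stated for libraries as labelled.

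All 8 GTPase genes had a higher mean level in *Crlf2*-/- than in WT hearts, and none of these differences passed the test. Levels are FPKM, fragments per length of gene and per size of library, further scaled by TMM, the trimmed mean of M values. The call asked for a log2 difference of at least 0.5 in either direction and for an adjusted p no higher than 0.05. The paper applied the same thresholds with DESeq2 and reported many more differing genes than limma called here. By limma 0 of 8 were called, where 2 of 15520 tested genes (0.0129%, and 0.00644% in the higher direction) were called in all, and limma's voom on the fragments also called 0 of 8. At an unadjusted p under 0.05, 5 of 8 were higher by either method, against 3.22% of all genes, and 6.58% in either direction. The *Crlf2*-/- libraries all lay above the WT libraries for 5 of 8, *Irgm1*, *Irgm2*, *Igtp*, *Ifi47* and *Gm4951*, against 5.37% of all genes. A higher mean was seen for 49.1% of all genes. The median log2 difference of the 8 was 0.44, and that of all genes was -0.0042. All 8 had passed the filter on low values.

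**Figure D1:**
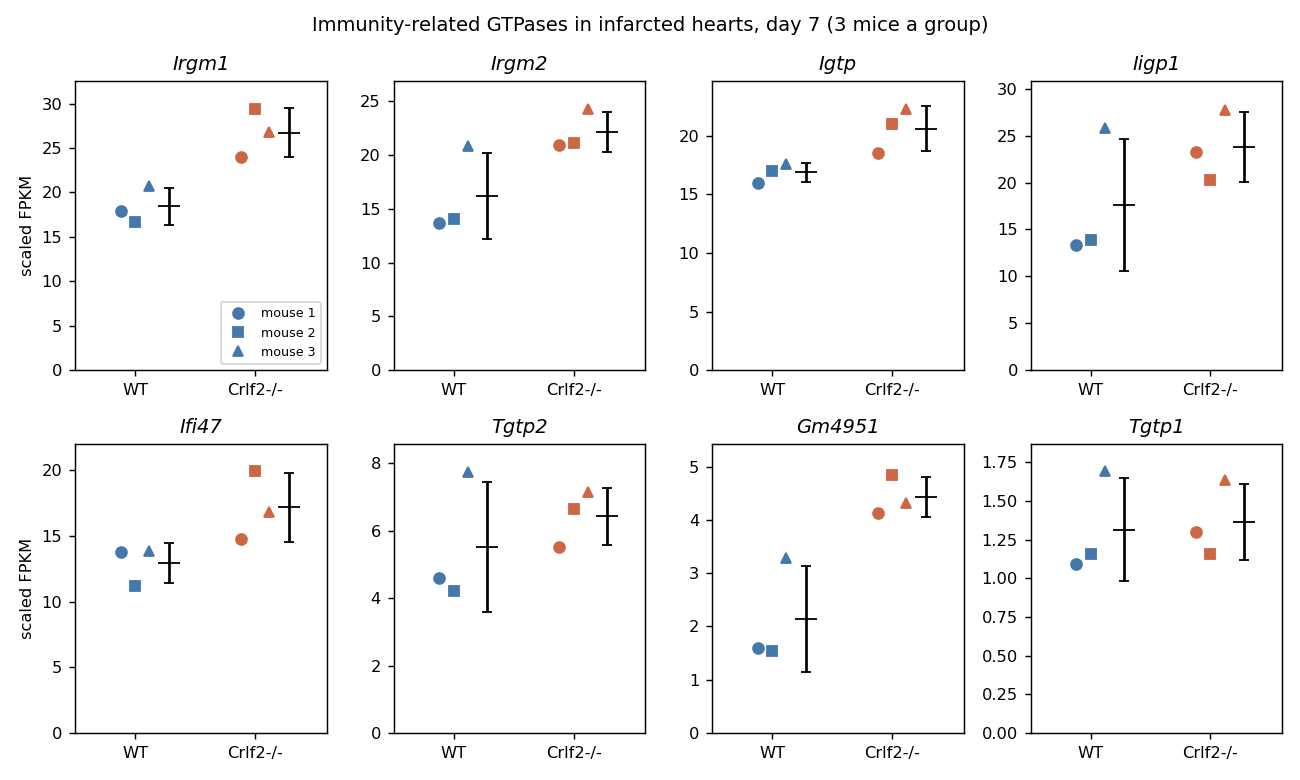
Scaled FPKM (y axis, from 0, a scale of its own in each panel) of the 8 GTPase genes in 3 WT and 3 Crlf2-/- hearts. Points are single mice with the replicate number as the marker, and the bar beside each group is the mean ± SD. WT replicate 3 (blue triangle) is the highest WT point in each of the 8 panels, and in the panels of Iigp1, Tgtp1 and Tgtp2 the groups overlap.

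Among the regulatory genes, *Irgm1* had levels of 17.96, 16.68 and 20.69 FPKM in WT replicates 1 to 3 and of 23.95, 29.42 and 26.86 FPKM in *Crlf2*-/- replicates 1 to 3. Every knockout library lay above every WT library. The means were 18.4 ± 2.05 and 26.7 ± 2.74 FPKM (SD, n = 3 each), a log2 difference of 0.53 with an SE of 0.12 (adjusted p = 0.273, limma). The 95% interval of this difference, not adjusted for the number of genes, ran from 0.25 to 0.82. *Irgm1* was also the deepest measured of the 8, with 2119 to 4003 fragments per library.

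*Irgm2* stood at 13.71, 14.01 and 20.79 FPKM in the WT libraries and at 20.96, 21.08 and 24.26 FPKM in the *Crlf2*-/- libraries. The groups did not overlap, but only just, since the lowest knockout library was 1.01 times WT replicate 3. The other WT libraries lay well below both. The log2 difference was 0.47 with an SE of 0.17, and its interval ran from 0.08 to 0.86 (adjusted p = 0.618, limma).

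*Igtp*, whose model overlaps that of *Irgm2*, was the steadiest of the 8 among WT hearts. Its levels were 15.96, 17.03 and 17.61 FPKM in WT and 18.53, 21.03 and 22.27 FPKM in *Crlf2*-/- hearts, again without overlap. The log2 difference was smaller, 0.28 with an SE of 0.11 and an interval from 0.04 to 0.53 (adjusted p = 0.652, limma). Summed over *Irgm1*, *Irgm2* and *Igtp*, the level was 47.6, 47.7 and 59.1 FPKM in WT and 63.4, 71.5 and 73.4 FPKM in *Crlf2*-/- hearts, so the regulatory branch as a whole did not overlap between the groups.

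The effector genes were more uneven. *Iigp1* and *Gm4951* lie on chromosome 18, at 60376029 to 60392627 (ENSMUSG00000054072) and 60212080 to 60247820 (ENSMUSG00000073555), both on the plus strand. *Iigp1* measured 13.30, 13.85 and 25.78 FPKM in the 3 WT hearts and 23.30, 20.27 and 27.69 FPKM in *Crlf2*-/- hearts. WT replicate 3 lay above 2 of the 3 knockout libraries, while the other WT libraries lay below all 3. The means of 17.6 ± 7.05 and 23.8 ± 3.73 FPKM gave a log2 difference of 0.48 with an SE of 0.25, and its interval, -0.10 to 1.07, included 0 (adjusted p = 0.834, limma).

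*Ifi47* measured 13.77, 11.19 and 13.85 FPKM in WT and 14.75, 19.94 and 16.84 FPKM in *Crlf2*-/- hearts. The groups did not overlap, and the highest library was *Crlf2*-/- replicate 2, as for *Irgm1*. The log2 difference was 0.40 with an SE of 0.14 and an interval from 0.08 to 0.73 (adjusted p = 0.615, limma). Of the 6 genes with a promoter shown above, only *Ifi47* had no ISRE or GAS in the window searched. *Iigp1* and *Gm4951* were not searched.

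*Tgtp1* and *Tgtp2* showed the smallest differences. *Tgtp2* measured 4.60, 4.20 and 7.74 FPKM in WT and 5.50, 6.64 and 7.15 FPKM in *Crlf2*-/- hearts, with WT replicate 3 the highest of all 6 libraries (log2 difference 0.26, SE 0.23, interval -0.25 to 0.78, adjusted p = 0.953, limma). *Tgtp1* measured 1.09, 1.16 and 1.70 FPKM in WT and 1.30, 1.16 and 1.64 FPKM in *Crlf2*-/- hearts, and WT replicate 3 was again the highest. Its log2 difference was 0.06 with an SE of 0.22 (interval -0.44 to 0.56, adjusted p = 0.996, limma). Only 80 to 119 fragments per library stood behind *Tgtp1*, so counting error is large for it.

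The sum of the near-copies does not depend on how fragments were split between them. It can still depend on whether fragments that match both were dropped or counted for each, and it leaves out *Gm12185*. *Tgtp1* and *Tgtp2* together held 389, 351 and 617 fragments in the WT group, which overlaps the 449, 544 and 590 of the *Crlf2*-/- group. The level of *Tgtp2* was 4.14 ± 0.469 times that of *Tgtp1* in WT and 4.78 ± 0.829 times in *Crlf2*-/- hearts (SD, n = 3 each), a gap within the spread of the groups. The 5 genes of the effector branch together stood at 34.3, 31.9 and 52.3 FPKM in WT and 49.0, 52.9 and 57.6 FPKM in *Crlf2*-/- hearts, where the groups overlap through WT replicate 3.

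*Gm4951* showed the largest difference of the 8. Its level was 1.59, 1.54 and 3.28 FPKM in WT and 4.13, 4.84 and 4.32 FPKM in *Crlf2*-/- hearts, from 89 to 300 fragments per library. The groups did not overlap, and WT replicate 3 lay between the other WT libraries and the knockout libraries. The means were 2.14 ± 0.992 and 4.43 ± 0.369 FPKM, so the mean in *Crlf2*-/- hearts was 2.08 times that in WT hearts. The log2 difference was 1.10 with an SE of 0.27 and an interval from 0.49 to 1.72 (adjusted p = 0.312, limma). Without WT replicate 3 it was 1.44, and *Gm4951* was then called different (adjusted p = 0.0371, limma). No other of the 8 was called with any one library left out.

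The order of the levels per length was much the same in both groups. In WT hearts it ran *Irgm1*, *Iigp1*, *Igtp*, *Irgm2*, *Ifi47*, *Tgtp2*, *Gm4951*, *Tgtp1*. In *Crlf2*-/- hearts it was the same except that *Irgm2* stood above *Igtp*. Each neighbour among the first 5 overlapped the next over the 3 libraries of a group, so their order is not resolved. *Ifi47* was apart from *Tgtp2*, and *Tgtp2* from *Gm4951*, in both groups. *Gm4951* and *Tgtp1* overlapped in WT and were apart in *Crlf2*-/- hearts. *Irgm1* alone made up 20.3% of the summed level of the 8 in WT and 21.8% in *Crlf2*-/- hearts, and *Tgtp1* 1.44% and 1.11%.

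All 8 together summed to 82.0, 79.7 and 111.4 FPKM in WT and to 112.4, 124.4 and 131.0 FPKM in *Crlf2*-/- hearts. The ratio of the group means was 1.35. The groups were apart by a narrow gap, WT replicate 3 at 111.4 and *Crlf2*-/- replicate 1 at 112.4 FPKM. The regulatory branch stood at 1.34 ± 0.188 times the effector branch in WT and at 1.31 ± 0.0413 times in *Crlf2*-/- hearts (SD, n = 3 each), a difference within the spread of the WT libraries.

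One WT library ran through these values. WT replicate 3 was the highest WT library for 8 of 8 genes, where it was so for 35.1% of all genes. Its level was 2.10 times the mean of the other WT libraries for *Gm4951*, 1.90 times for *Iigp1* and 1.76 times for *Tgtp2*, but 1.07 times for *Igtp* and 1.11 times for *Ifi47*. Against the mean of the *Crlf2*-/- libraries it stood at 0.74 times for *Gm4951* and at 1.24 times for *Tgtp1*. With WT replicate 3 left out, the groups did not overlap for 8 of 8 genes, against 11.3% of all genes with that library left out. As the highest WT library for all 8, its removal could only widen their gaps. For all genes it was the highest in 35.1%, so the shares are not like for like. For *Tgtp1* the gap was 1.159 in *Crlf2*-/- replicate 2 against 1.156 FPKM in WT replicate 2. The groups did not overlap for the same 5 genes as with all libraries without WT replicate 1 (10.3% of all genes), WT replicate 2 (8.50%) or *Crlf2*-/- replicate 1 (11.0%), 2 (9.69%) or 3 (9.92%).

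**Figure D2:**
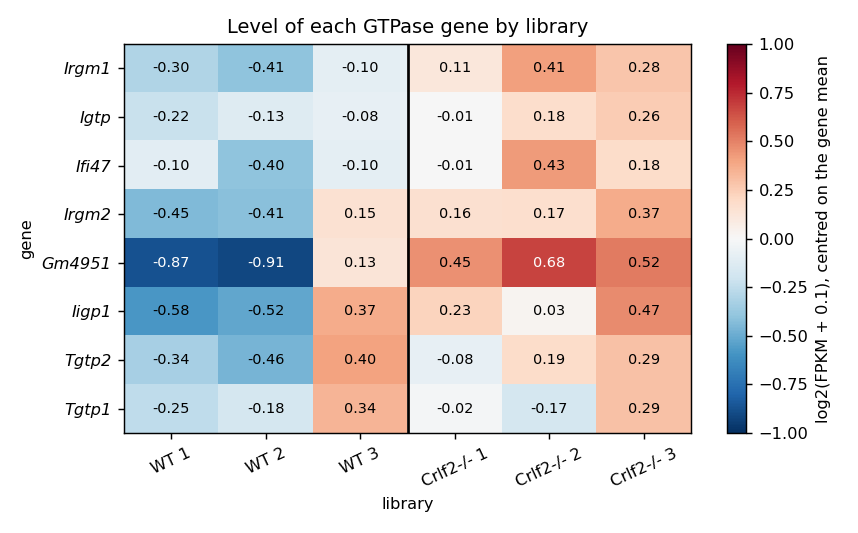
Level of each GTPase gene (rows) in each library (columns) as log2(FPKM + 0.1) minus the gene's mean over the 6 libraries, with the value in the cell and the colour from blue (below the mean) to red (above). The vertical line parts WT from Crlf2-/- libraries, and WT replicate 3 is the column on the WT side with values above the mean, for 5 of the 8 genes.

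The genes differed in which libraries were high. As a description over n = 6 libraries that share the group split, Pearson's r between log2 levels was 0.97 for *Irgm2* with *Iigp1*, 0.96 for *Irgm2* with *Gm4951* and 0.95 for *Irgm1* with *Gm4951*. At the other end it was 0.12 for *Tgtp1* with *Ifi47* and 0.30 for *Tgtp1* with *Irgm1*. Among the *Crlf2*-/- libraries, *Irgm1*, *Ifi47* and *Gm4951* were highest in replicate 2 and the other 5 genes in replicate 3. *Tgtp1* was lowest of the *Crlf2*-/- libraries in replicate 2, where *Ifi47* was highest, and *Crlf2*-/- replicate 1 was the lowest for 6 of the 8 genes.

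The genes whose levels were most like the mean of the 8 over these 6 libraries were *Akt2-ps* (r = 0.98), *Drd2* (r = 0.98), *Fbxw17* (r = 0.98), *Igsf11* (r = 0.98) and *Carmn* (r = 0.98). *Drd2*, *Igsf11* and *Carmn* were at low levels, with means of 0.236, 0.0769 and 0.229 FPKM in WT hearts. Of the 15512 other genes tested, 130 (0.838%) had an r over 0.9. *Gbp7* of the guanylate-binding proteins, another interferon-induced GTPase family, came next with an r of 0.98, from 4.19, 4.29 and 7.72 FPKM in WT and 7.88, 7.57 and 8.49 FPKM in *Crlf2*-/- hearts. WT replicate 3 of *Gbp7* lay far above the other WT libraries and close to the knockout libraries. A choice by likeness to the mean of the 8 favours that shape.

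**Figure D3:**
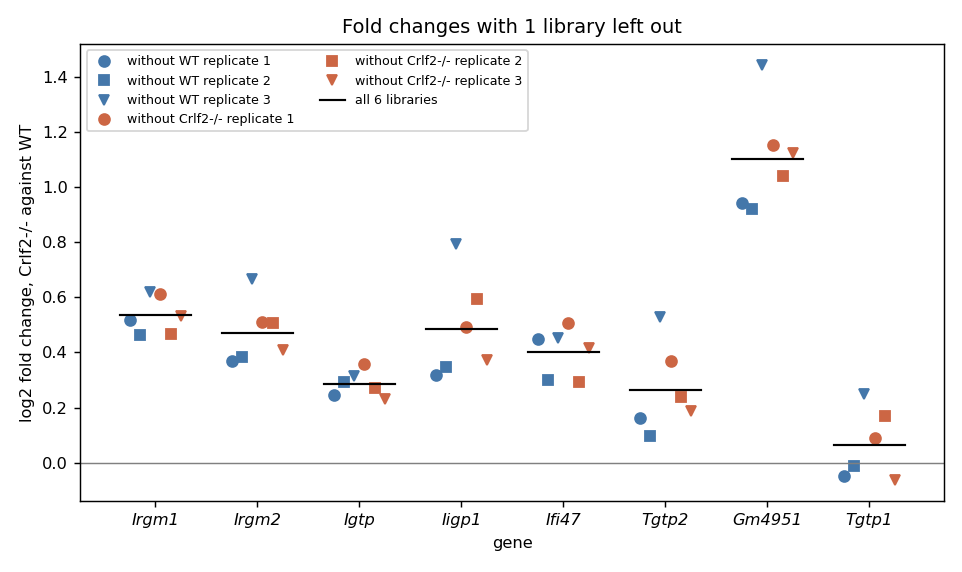
Log2 difference, Crlf2-/- minus WT, of each GTPase gene (x axis) with all 6 libraries (black line) and with 1 library left out (points, blue for a WT and orange for a Crlf2-/- library). Leaving out WT replicate 3 (blue triangle) gave the highest value for 6 of the 8 genes, and Tgtp1 lay near 0 with values from -0.06 to 0.25.

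Other genes of the family had higher means in *Crlf2*-/- hearts too. Of 11 further family genes or gene models, 10 were listed and 8 tested, and 8 of 8 had a higher mean, against 49.1% of all genes. At an unadjusted p under 0.05, 2 were higher, against 3.22% of all genes, and 0 were called by limma. The 8 include *Gm12185*, which shares exon bases with *Tgtp1*. *Gm5431* lies between *Irgm1* and *Tgtp1* on chromosome 11 (48887422 to 48902214, minus strand). It measured 2.79, 2.0 and 2.99 FPKM in WT and 5.24, 5.60 and 4.80 FPKM in *Crlf2*-/- hearts, without overlap. Its log2 difference was 1.00 with an SE of 0.16 (adjusted p = 0.132, limma).

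*Gm12250*, the gene model of *Irgb10* and listed as a processed pseudogene, lies just before *Igtp* (58187739 to 58189012, plus strand). It measured 6.45, 5.10 and 6.27 FPKM in WT and 7.57, 9.75 and 9.19 FPKM in *Crlf2*-/- hearts, without overlap (log2 difference 0.56, SE 0.14, adjusted p = 0.324, limma). Like *Irgm1* and *Ifi47*, it peaked in *Crlf2*-/- replicate 2. The median log2 difference of the 8 tested genes was 0.56. *Irgq*, a distant relative, was at 5.12 ± 0.564 FPKM in WT and 5.22 ± 0.781 FPKM in *Crlf2*-/- hearts (log2 difference 0.02, SE 0.15, adjusted p = 0.996, limma). *F830016B08Rik* showed how uneven the low family members were, with 0.36, 0.75 and 3.17 FPKM in WT and 1.57, 0.66 and 4.97 FPKM in *Crlf2*-/- hearts.

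**Figure D4:**
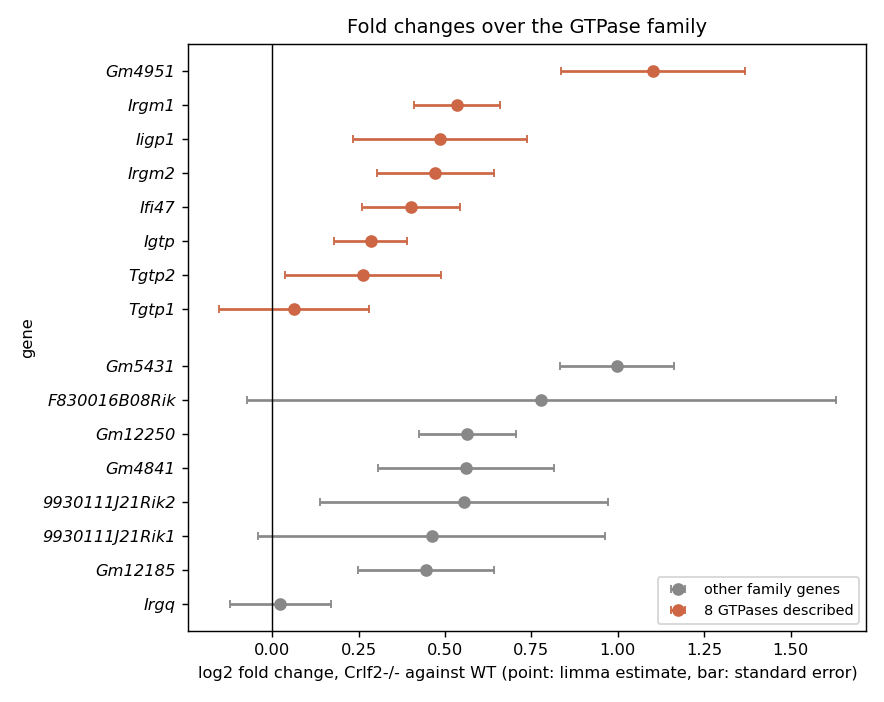
Log2 difference, Crlf2-/- minus WT (x axis), of the 8 GTPase genes (orange) and of 8 other tested genes of the family (grey), with points for the limma estimate and bars for its standard error (n = 3 per group). All 16 points lie at or above 0, and Gm4951 and Gm5431 lie farthest to the right.

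The genes listed for interferon gamma signalling, which have different roles in it, were split in direction. Of 13 genes of interferon gamma signalling, 12 were tested, 6 were higher and 6 lower in *Crlf2*-/- hearts, 0 higher and 1 lower at an unadjusted p under 0.05, and 0 were called by limma. *Ifng*, the cytokine itself, was too low to test, with 7, 9 and 4 fragments in the WT group against 3, 1 and 2 in the *Crlf2*-/- group. *Ifngr1*, the receptor chain that binds it, measured 67.69, 62.40 and 65.32 FPKM in WT and 51.60, 52.74 and 50.54 FPKM in *Crlf2*-/- hearts, where every knockout library lay below every WT library (log2 difference -0.33, SE 0.098, adjusted p = 0.457, limma). *Ifngr2*, its partner chain, overlapped between the groups (log2 difference -0.14, adjusted p = 0.937, limma).

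*Irf1*, which interferon gamma induces and whose protein binds the ISRE, was at 11.2 ± 0.591 FPKM in WT and 11.8 ± 0.584 FPKM in *Crlf2*-/- hearts, with overlapping libraries (log2 difference 0.07, SE 0.097, adjusted p = 0.995, limma). The median log2 difference of the 12 tested genes was -0.03.

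Of 11 genes of type I interferon signalling, 10 were tested, 8 were higher and 0 were called by limma. At an unadjusted p under 0.05, 5 were higher, against 3.22% of all genes. The *Crlf2*-/- libraries all lay above the WT libraries for 5 of the 10, against 5.37% of all genes. These were *Irf7*, *Irf9*, *Stat2*, *Usp18* and *Isg15*. *Irf7*, a factor that amplifies type I interferon, measured 16.13, 12.08 and 18.55 FPKM in WT and 25.63, 53.73 and 46.86 FPKM in *Crlf2*-/- hearts (log2 difference 1.38, SE 0.28, adjusted p = 0.223, limma). It was called different with *Crlf2*-/- replicate 1 left out (log2 difference 1.70, adjusted p = 0.0369, limma). *Stat2* and *Irf9*, whose proteins act together at the ISRE, had log2 differences of 0.73 and 0.50 (adjusted p = 0.254 and 0.25, limma). *Ifnar1* and *Ifnar2*, the receptor chains, had -0.01 and 0.04.

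Interferon gamma targets outside the family were divided. Of 25 genes, 20 were tested, 15 were higher and 5 lower, and 0 were called by limma. At an unadjusted p under 0.05, 5 were higher, against 3.22% of all genes, and 1 was lower. *Tap1*, the peptide transporter of antigen presentation, was higher in every knockout library, at 9.93 ± 0.768 FPKM in WT and 15.4 ± 1.65 FPKM in *Crlf2*-/- hearts (log2 difference 0.62, SE 0.12, adjusted p = 0.162, limma), and so was *Gbp3* (0.75, adjusted p = 0.254, limma). *Gbp2* (log2 difference 0.08) and the chemokine *Cxcl9* (-0.27), also interferon gamma targets, overlapped between the groups, and *Serpina3g* had a log2 difference of -0.64 (adjusted p = 0.575, limma). The median of the 20 was 0.20. The autophagy machinery, parts of which help to place these GTPases on membranes, had 15 of 15 genes tested, with 4 higher and 11 lower, 0 at an unadjusted p under 0.05 and a median of -0.06.

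**Figure D5:**
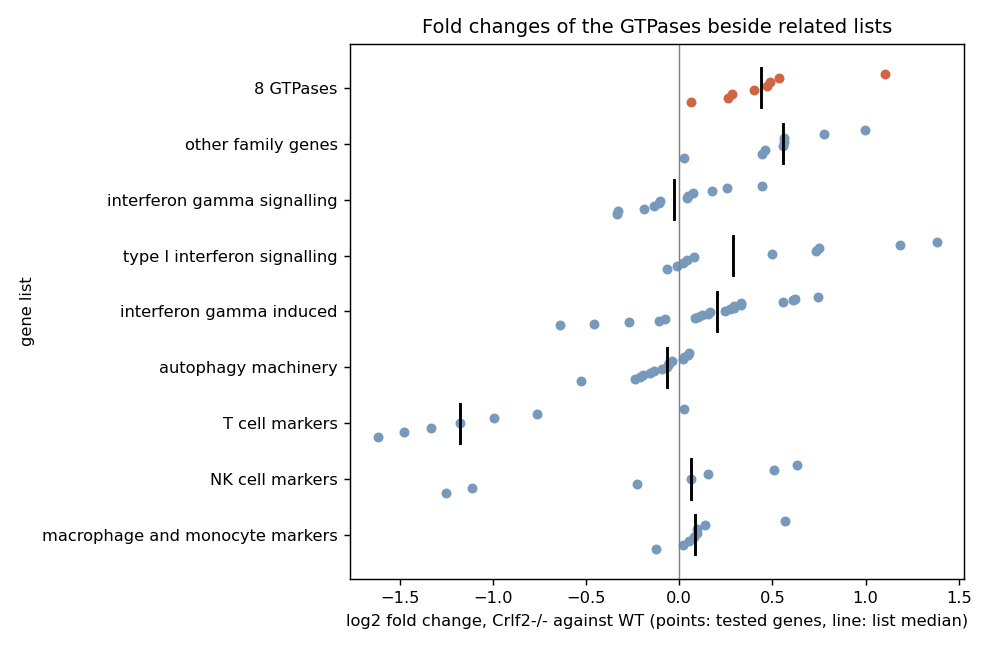
Log2 difference, Crlf2-/- minus WT (x axis), of every tested gene of 9 lists (rows), with the 8 GTPases in orange and the list median as a vertical line. The medians are 0.44 for the GTPases, -0.03 for interferon gamma signalling, 0.29 for type I interferon signalling, -0.06 for autophagy and -1.18 for T cell markers.

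Markers of some cell types were also split by group. T cells and NK cells are the main sources of interferon gamma, and 6 of 7 T cell markers were lower in *Crlf2*-/- hearts at an unadjusted p under 0.05, all but *Cd4*. Over all 15520 tested genes, 522 were lower and 499 higher at that p. The summed level of the 7 T cell markers was 14.3 to 21.5 FPKM in WT and 8.52 to 10.7 FPKM in *Crlf2*-/- hearts. The 7 NK cell markers were divided. *Gzmb* and *Nkg7* were lower at that p, 1 more had a lower mean, and 4 had a higher mean, with 0 of the 4 at that p and *Eomes* higher in every *Crlf2*-/- library. Their median log2 difference was 0.06, while the sum, to which *Nkg7* and *Gzmb* add the most, was 13.0 to 14.2 FPKM in WT and 5.64 to 9.82 FPKM in *Crlf2*-/- hearts. In bulk tissue, fewer cells of a type and less RNA per cell cannot be told apart.

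Macrophages and monocytes, which express the GTPases strongly when stimulated, had 1 of 8 markers higher at an unadjusted p under 0.05, *Ly6c2*, and 0 lower. Their summed level, mostly *Lyz2*, was 1656 to 3068 FPKM in WT and 1773 to 2596 FPKM in *Crlf2*-/- hearts. The sum was lowest in WT replicate 3, the WT library with the highest GTPase levels. Among WT libraries, *Adgre1*, *Csf1r*, *Cd68*, *Itgam*, *Lyz2* and *Mrc1* were lowest there. *Ly6c2* was not, and *Ccr2* was highest there. All 5 red blood cell markers were lower at that p, with sums of 226 to 366 FPKM in WT and 85.4 to 161 FPKM in *Crlf2*-/- hearts. All 6 cardiomyocyte markers had a lower mean, 2 at that p, with sums of 867 to 1688 and 589 to 1152 FPKM. Of 5 fibroblast markers 3 had a higher and 2 a lower mean, 0 at that p, and the sum, mostly *Col1a1*, *Col1a2* and *Postn*, was 4117 to 5081 FPKM in WT and 5295 to 5342 FPKM in *Crlf2*-/- hearts. Of the remaining lists, 1 of 5 dendritic cell and 1 of 5 endothelial markers were lower at that p, and 0 of 4 tested neutrophil and 0 of 4 B cell markers passed it in either direction. In none of these lists was a marker listed at 0 in all 6 libraries. The part of these cell types, and of the amount of muscle in each piece of tissue, in the GTPase values was not tested.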

How the data were processed

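Bulk RNA-seq of infarcted hearts from 3 WT and 3 *Crlf2*-/- mice on day 7 was used. The authors trimmed reads with FASTP, aligned them with Hisat2 (HISAT2 2.0.5 in the submitters' processing notes, which list mm10 and hg38 as builds), counted fragments with featureCounts and deposited FPKM with a gene length per gene. Of 54532 genes, 54495 were also in GENCODE M21, 53585 with the same start and end. The table held 0 columns of other samples.

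FPKM multiplied by the deposited gene length gave whole fragments for 100% of nonzero values (tolerance 0.05). TMM factors (trimmed mean of M values) from these fragments were then applied to the deposited FPKM. The 15520 genes tested had 15 fragments or more in total and 10 or more in each of 3 libraries. limma 3.58.1 in R 4.3.3 (lmFit, eBayes with trend and robust) was fitted on log2(FPKM + 0.1) over both groups, and p-values were adjusted over all genes by Benjamini-Hochberg. Log2 differences are on that scale, which understates changes of low genes. A call needed a log2 difference of at least 0.5 either way and an adjusted p no higher than 0.05. The fit was tested on simulated data. Each library came from 1 mouse, and no library pair held the same values. The 8 genes, the lists and the tests were chosen with earlier results of these data known. Named genes were the 8 members, *Crlf2*, key signalling genes, the genes of each list with the strongest differences and the 5 genes most like the members' mean; others were named after their values were seen, as were the retina markers. An item of the interferon gamma signalling list withheld for evaluation is not reported here, and the list's counts and median leave it out. Alternatives were another scaling, FPKM as deposited, other filters, pseudocounts of 1 and 0.01, voom, a replicate block and leaving out each library. Other steps ran in Python 3.11.15 with pandas 2.3.3, numpy 2.4.6, matplotlib 3.10.9 and scipy 1.17.1.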

Additional observations from a re-analysis of the deposited data

How the results depend on the processing

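The 8 GTPase genes kept the direction of their log2 differences under another scaling, FPKM as deposited, other filters, pseudocounts of 1 and 0.01, voom and a replicate block. With 1 library left out, *Tgtp1* turned to -0.05 without WT replicate 1, -0.01 without WT replicate 2 and -0.062 without *Crlf2*-/- replicate 3, with a highest value of 0.25. Their median log2 difference ran from 0.32 to 0.57 with 1 library left out and from 0.41 to 0.44 otherwise. The count at an unadjusted p under 0.05, 5 of 8, was 2 with WT replicate 2 left out, 7 with WT replicate 3 left out, and 3 without WT replicate 1, *Crlf2*-/- replicate 2 or *Crlf2*-/- replicate 3. The count called ran from 0 to 1, with *Gm4951* called without WT replicate 3 by limma (adjusted p = 0.0371, where its other leave-outs reached 0.85). Over all genes, 2 called became 6 with no filter, 1 with at least 10 fragments in every library, 4 with the replicate block and 3 with voom, and 1 to 14 with 1 library left out, 14 without *Crlf2*-/- replicate 1 and 8 without WT replicate 3. The cause of these shifts was not tested.

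Replicate numbers were not taken to pair mice: correlations of same-numbered libraries' deviations were -0.02, 0.12 and 0.12, and 2 of 6 libraries correlated best with their own number. The replicate block raised the count of GTPases at an unadjusted p under 0.05 to 6 and called 0. Depth limits *Tgtp1* and *Gm4951* most.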
